A study of Emiliania huxleyi with 18 samples.

Results

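The transcriptome of control cultures of the coccolithophore Emiliania huxleyi on day 13 was set against that of control cultures on day 10, the second of the 2 intervals in a time course under growth light alone. The comparison holds 6 of the 18 libraries of the series and was defined by the sample labels: 3 libraries of control day 13 and 3 of control day 10. All cultures were of the axenic strain CCMP3266, grown standing at 18 °C in artificial sea water with L1 nutrients but no silicate, from an inoculum of 330 cells per ml, under a day of 16 h light, at 130 µmol photons per m2 per s, followed by 8 h without light. Control cultures received no UV. The other groups used here are UV day 13, UV day 10 and UV day 7, whose growth light was supplemented for 14 h a day by a lamp giving 0.07 W per m2 of UV-B, and control day 7, with 3 libraries each. The series asked how weak UV alters the transcriptome, and the control time course follows transcripts over the harvest days when no UV is given. The strain carries no transgene. The labels do not say whether the 3 libraries of a group came from separate flasks, so p-values measure the spread between these libraries.

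Emiliania huxleyi is a unicellular calcifying haptophyte that forms large ocean blooms. In a closed flask such cells divide while nutrients last, then slow down as nitrogen, phosphorus or light per cell runs short, and transcript pools are known to be remodelled over that transition. The labels give harvest days but neither cell densities nor growth phases for these cultures, so the results are ordered by day only. The genes carry the submitters' identifiers (G followed by a number), which the files do not pair with names or functions, and 0 of them matched the RefSeq gene table of the strain CCMP1516. Transcripts are therefore described by level and change, with few identifiers, and no sequence or role is given for any of them.

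Library depth was 5274045 to 6426803 unique molecular identifiers (UMIs, tags that let each captured transcript molecule be counted once) in control day 13 and 1124600 to 7455081 UMIs in control day 10. Day 10 replicates 1 and 2 stood apart from the other control libraries. They held 1124600 and 1554537 UMIs with 0.870 and 0.876 UMIs per read, whereas day 10 replicate 3 held 7455081 UMIs with 0.707 UMIs per read and the day 13 libraries had 0.770 to 0.784. UV day 10 replicates 1 and 2 shared this property, for which the labels name no batch. Results are therefore also given with replicate 3 as the only day 10 library, where a lone library is taken to vary like the libraries of other groups. The control day 7 libraries had 0.700 to 0.735 UMIs per read, a range that holds replicate 3 but not the day 13 libraries. With replicate 3 alone the 2 days thus still differed in this ratio, and its part in the results was not tested. Log2 levels correlated across genes at 0.984 to 0.985 between pairs of day 13 libraries, 0.944 to 0.967 between pairs of day 10 libraries and 0.913 to 0.931 between days.

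Transcript levels changed widely over the interval, in both directions. By edgeR's quasi-likelihood test 4737 of 18196 genes (26%) had an adjusted p under 0.05, with 2198 (12.1%) higher on day 13 and 2539 (14%) lower. Most of these changes were below 2-fold, with a median absolute log2 fold change of 0.81 among called genes (quartiles 0.53 and 1.38) and 0.28 among all genes tested. Among changes of at least 2-fold there were 693 rises (3.81%) and 1147 falls (6.3%), a lean that total-count scaling turned to 1033 rises and 945 falls. Among changes of at least 4-fold there were 147 rises (0.808%) and 428 falls (2.35%), and falls stayed in excess under total-count scaling (202 and 361) and median-of-ratios scaling (141 and 445). Every day 13 library lay above every day 10 library for 3696 genes (20.3%) and below for 3182 (17.5%), and 1991 and 2288 of these passed the test in that direction. Before adjustment 6561 genes had a p under 0.05.

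Both the number of calls and the split between rises and falls depended on the processing. Levels are given in CPM, the UMI count relative to the size of the library. They are shares of a library, so a change in total RNA per cell is not seen, and the level that counts as no change is set by the scaling. With scaling by total counts the middle gene of all tested had a log2 fold change of 0.21, against 0.04 with the trimmed mean of M-values (TMM) used here. It gave 4449 rises and 1837 falls (70.8% rises, against 46.4%). Median-of-ratios scaling gave 1952 rises and 2728 falls. With replicate 3 as the only day 10 library 1656 genes were higher and 2237 lower, and without that replicate 1163 were higher and 2088 lower. With every library thinned to 1060640 UMIs, the total of the smallest library of the series, 2641 of 14512 genes tested passed, 920 higher and 1721 lower (34.8% rises).

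**Figure D1:**
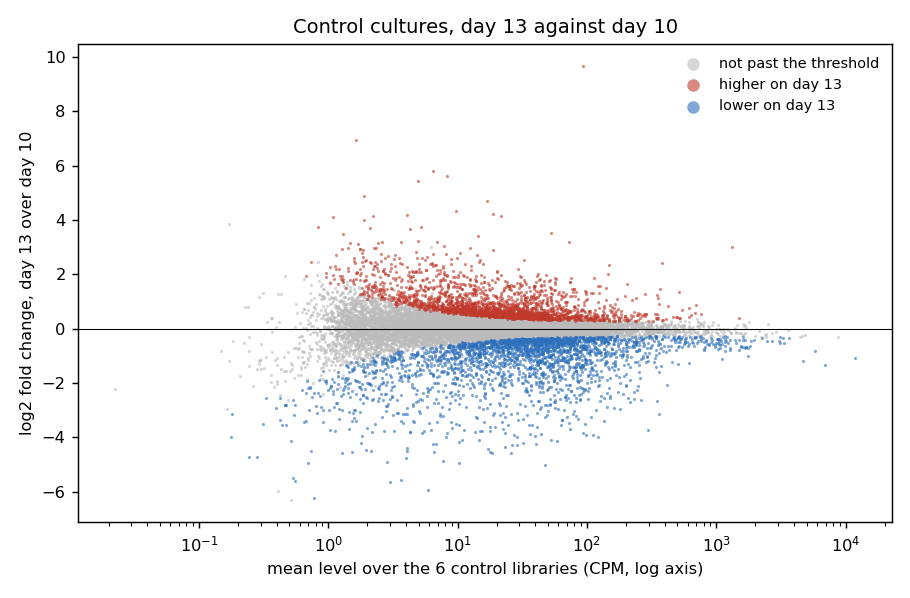
Log2 fold change of each of 18196 genes (day 13 over day 10, control cultures) against its mean CPM over the 6 libraries on a log axis. Red points passed an adjusted p of 0.05 in edgeR with higher levels on day 13, blue points with lower levels, and grey points did not pass. Beyond 4-fold there are 428 blue and 147 red points, and above 41.8 CPM, on the right, 1120 blue and 528 red points.

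The calls were also counted by transcript level. In the top quartile of genes by mean level over the 6 libraries (above 41.8 CPM), 1120 of 4549 genes were lower on day 13 (24.6%) and 528 higher (11.6%). In the lowest quartile (below 7.32 CPM) the numbers were 413 lower (9.08%) and 429 higher (9.43%). Called genes changed by a median absolute log2 fold change of 0.61 in the top quartile and 1.58 in the lowest. A scarce gene needs a larger fold to pass, so these medians do not compare the size of change between levels. The lean of the top quartile depended on the scaling, as total-count scaling gave 788 lower and 1243 higher genes there.

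At the very top of the distribution the direction held under each scaling. Of the 100 most abundant genes on day 13, 45 were lower and 3 higher than on day 10. Of the 100 most abundant on day 10, a choice that favours falls, 60 were lower and 1 higher. Total-count scaling gave 34 lower and 13 higher among the first set and 47 lower and 6 higher among the second. The top 100 lists of the 2 days shared 85 genes, and the top 10 lists shared 8.

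The most abundant genes held a smaller share of the transcript pool in each day 13 library than in any day 10 library. The 100 most abundant genes of each library took 20.6%, 20.3% and 18.0% of UMIs in day 13 replicates 1, 2 and 3, against 22.9%, 23.1% and 23.2% in day 10. All 3 day 13 libraries lay below all 3 day 10 libraries, with means of 19.6 ± 1.44% and 23.1 ± 0.151% (SD, n = 3 each; exact two-sided permutation p = 0.1, the smallest that 3 against 3 can give). The 10 most abundant genes took 5.10 ± 0.480% on day 13 and 7.22 ± 0.0690% on day 10. At the equal depth of 1060640 UMIs, 19531, 19630 and 19620 genes were detected on day 13, against 19283, 19103 and 19412 on day 10. The groups again did not overlap, with 19594 ± 54.5 genes on day 13 and 19266 ± 155 on day 10 (SD, n = 3 each; exact two-sided permutation p = 0.1). The gap of 328 genes was 182 with replicate 3 as the only day 10 library. At full depth the gap was larger, 23385 ± 238 on day 13 and 20964 ± 2306 on day 10, where the day 10 libraries also differed 6.63-fold in depth.

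Genes seen on 1 of the 2 days only were few. At least 10 UMIs over the day 13 libraries and 0 over the day 10 libraries were found for 23 genes, 19 of them seen in all 3 day 13 libraries. The reverse was found for 7 genes, 2 of them seen in all 3 day 10 libraries. Of the 23 genes 1 was among the called genes, and of the 7 genes 3 were. Any gene too scarce to be tested is among those not called, so these are not shares of genes tested. The day 13 libraries summed to 17049062 UMIs and the day 10 libraries to 10134218, so absence on day 10 was tested at lower depth. Against a floor of 3 UMIs over a group, the most extreme gene of the first set was at least 12.5-fold higher on day 13, and that of the second at least 12.9-fold lower. Of the tested genes with 3 or fewer UMIs over the day 10 libraries and 20 or more over day 13, 24 in all, 20 passed the test, and their day 13 means ran from 1.13 to 186 CPM with a median of 2.52 CPM. Of the 12 genes with the reverse pattern 11 passed, with day 10 means of 1.04 to 7.21 CPM and a median of 2.59 CPM. Both lists were chosen by these counts, so the number that passed is a description.

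A large fold and a large difference in level are each shown by 1 rise and 1 fall. They were picked among genes past the threshold whose libraries did not overlap between days, with at least 10 UMIs over each group and a second identifier of their own: in each direction the gene with the largest fold and the gene with the largest difference in CPM, out of 1826 candidates that rose and 2052 that fell. Called genes that did not meet this rule reached larger absolute log2 fold changes, up to 9.69 for rises and 6.25 for falls.

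G10667 had the largest log2 rise among these candidates. It stood at 33.9, 32.0 and 31.1 CPM in day 13 replicates 1, 2 and 3, against 1.76, 1.32 and 1.08 CPM in day 10. The day 13 libraries were tightly grouped and 23.3-fold above the day 10 mean, with a log2 fold change of 4.71 (SE 0.32, edgeR adjusted p = 1.71e-14). Day 10 values rest on 2, 2 and 8 UMIs. Its control day 7 mean was 0.987 ± 0.364 CPM (SD, n = 3); it was scarce on both earlier days.

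G4899 had the largest gain in CPM among the candidates. Its level was 2445, 2393 and 2169 CPM on day 13, against 273, 330 and 272 CPM on day 10. The groups were far apart, with a log2 fold change of 3.00 (SE 0.24, edgeR adjusted p = 8.38e-08). By mean level it was the gene of rank 19 on day 13 and of rank 492 on day 10. UMIs count molecules by one end tag, so transcript length does not enter these ranks directly. Control day 7 stood at 198, 194 and 176 CPM.

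G8750 had the largest log2 fall among the candidates. It stood at 1.22, 3.74 and 3.63 CPM on day 13, against 51.1, 114 and 110 CPM on day 10. Day 10 replicate 1 was the low one of its group yet far above every day 13 library. The log2 fold change was -5.02 (SE 0.37, edgeR adjusted p = 4.80e-08). Control day 7 was higher still, at 393 ± 71.8 CPM (SD, n = 3), and day 10 against day 7 also passed, with a log2 fold change of -2.04 (SE 0.25, edgeR adjusted p = 1.42e-05). The level thus declined in both intervals.

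G29283 had the largest loss in CPM among the candidates and was the most abundant gene on day 10. It held 8463, 8050 and 6272 CPM on day 13, against 16768, 17019 and 14867 CPM on day 10. It ranked 2 on day 13, with means of 7595 ± 1164 CPM on day 13, against 16218 ± 1177 CPM on day 10 (SD, n = 3 each). The log2 fold change was -1.09 (SE 0.15, edgeR adjusted p = 9.33e-07). Control day 7 stood at 16461 ± 2092 CPM (SD, n = 3), and day 10 against day 7 gave a log2 fold change of -0.02 (SE 0.15, edgeR adjusted p = 0.931).

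In the authors' deposited table, where the fold change runs as day 10 over day 13, the log2 fold changes were -4.69 for G10667, -2.97 for G4899, 5.03 for G8750 and 1.13 for G29283. The authors' deposited table called 3688 genes at an adjusted p of 0.05, of which 3607 are among the 4737 genes called here (97.8% of the authors' list and 76.1% of the list here), and 0 of the shared genes had the opposite direction. Both lists come from the libraries of this series, which largely ensures a shared direction, so the overlap is no independent check.

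**Figure D2:**
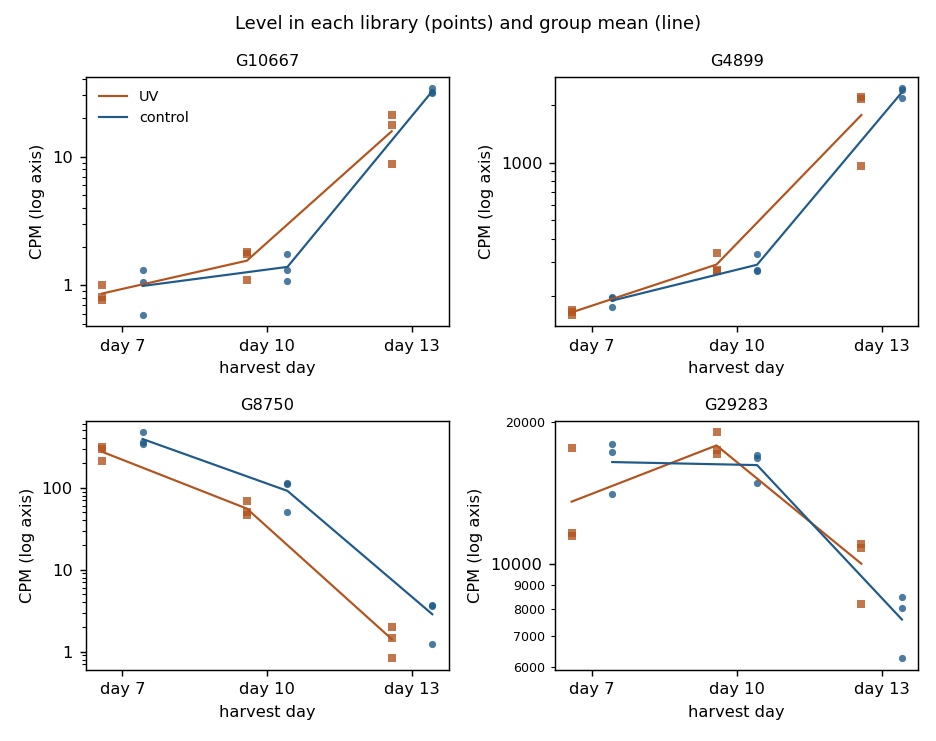
CPM on a log axis of the 2 named genes that rose (top) and the 2 that fell (bottom), by harvest day. Squares are UV libraries and circles control libraries, 3 per group, with lines through the group means. For each gene every control day 13 circle lies on one side of every control day 10 circle, as with G4899 at 2169 to 2445 CPM on day 13, against 272 to 330 CPM on day 10.

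UV cultures passed through the same interval and share no library with the control comparison, although both arms have the shallow day 10 replicates 1 and 2 and all libraries share the fit. In UV cultures 3641 genes (20%) were called for day 13 against day 10, 1664 higher (9.14%) and 1977 lower (10.9%), and total-count scaling again turned the split, with 71.3% rises against 45.7%. Of the 4737 genes called in control, 4373 (92.3%) had the same sign in UV cultures, against 72.4% of all genes tested. The share was 93.4% of the control rises and 91.3% of the control falls. With replicate 3 as the only day 10 library in both arms, 91.0% of 3893 control calls had the same sign, against 70.2% of all genes. The 2 arms called 2474 genes in the same direction, which is 52.2% of the control list and 67.9% of the UV list, and 19 in opposite directions. Across all 18196 genes the log2 fold changes of the arms correlated at r = 0.731 (Spearman rho = 0.639), a description over genes that share libraries. With replicate 3 as the only day 10 library in both arms r was lower, at 0.592 over the genes tested there.

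The share of the transcript pool held by the called genes shows the size of the shift. The genes called lower took 24.1%, 24.0% and 22.9% of the UMIs of tested genes in control day 13 replicates 1, 2 and 3, against 34.9%, 36.8% and 35.5% in control day 10. The genes called higher took 11.7%, 11.9% and 12.5% on day 13, against 6.82%, 6.49% and 6.58% on day 10. These control values were used to choose the genes. The UV libraries share the fit's filter, scaling and spread but are not part of that contrast. The same lower genes took 24.5%, 25.5% and 24.8% in UV day 13 and 34.2%, 34.3% and 33.1% in UV day 10, and the same higher genes took 11.7%, 11.3% and 11.6% and then 7.11%, 7.13% and 7.19%. In UV cultures the days did not overlap for either list (exact two-sided permutation p = 0.1 for each, the smallest possible). These shares use no scaling between libraries.

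**Figure D3:**
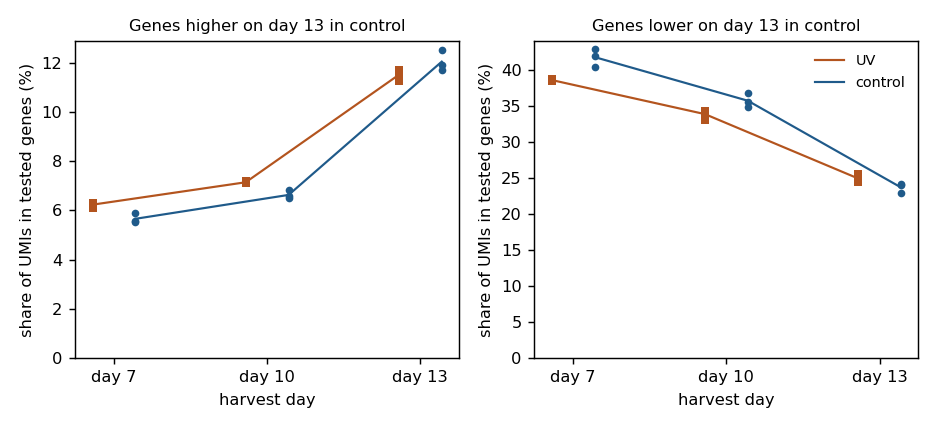
Percent of the UMIs of tested genes held by the 2198 genes called higher (left) and the 2539 genes called lower (right) on day 13 in control cultures, by harvest day. Squares are UV libraries and circles control libraries, with lines through group means. In control day 13 the lower genes held 22.9% to 24.1% of UMIs, and 34.9% to 36.8% in control day 10.

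The 4 named genes passed in the same direction in UV cultures. G10667 stood at 15.8 ± 6.26 CPM in UV day 13 and 1.55 ± 0.394 CPM in UV day 10 (SD, n = 3 each; log2 fold change 3.45, edgeR adjusted p = 2.28e-09). Its step in UV minus control was -1.26 on the log2 scale (SE 0.67, edgeR adjusted p = 0.464). G4899 stood at 1775 ± 701 CPM in UV day 13 and 292 ± 36.1 CPM in UV day 10, a log2 fold change of 2.59 (edgeR adjusted p = 7.96e-07), and its step in UV minus control was -0.41 (SE 0.31, edgeR adjusted p = 0.692). UV day 13 replicate 2 was the low library for both, with 8.82 CPM of G10667 and 965 CPM of G4899, against 17.6 to 20.9 CPM and 2160 to 2198 CPM in the other UV day 13 libraries. G8750 had a log2 fold change of -5.17 in UV (edgeR adjusted p = 1.17e-06), with a difference from control of -0.15 (SE 0.73, edgeR adjusted p = 0.977). G29283 had -0.84 in UV (edgeR adjusted p = 8.12e-05), with a difference from control of 0.26 (SE 0.21, edgeR adjusted p = 0.704). A p that misses the threshold does not show equal steps.

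The difference between arms, tested with edgeR's quasi-likelihood method, passed for 467 genes (2.57%), 414 (2.28%) with a more positive step in UV and 53 (0.291%) with a less positive step. Of the 414 genes, 406 were lower on day 13 than on day 10 in control by the fitted value, and for 380 the change in UV was smaller in size than that fall. Their median log2 fold change was -0.44 in UV and -1.58 in control. Among the 53 genes, 44 were higher on day 13 in control, with a median of -0.36 in UV and 0.53 in control over the 53. Both sets were chosen by this difference in the same libraries, so the order of the medians follows from that choice. The smaller size of change in UV follows from it in part. The count fell to 259 without UV day 13 replicate 2, to 296 without UV day 10 replicate 3 and to 189 with day 10 replicates 1 and 2 alone, of which 241, 266 and 158 had a more positive step in UV. At equal depth it was 216, of which 199 had a more positive step in UV. With replicate 3 as the only day 10 library it was 406, of which 390 had a more positive step in UV.

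Among genes with at least 10 UMIs in each group and a second identifier of their own, G13865 and G39390 had the smallest p in each direction. G13865 stood at 5.51, 7.92 and 4.15 CPM in UV day 13 and 4.69, 6.61 and 2.75 CPM in UV day 10, so the UV groups overlapped. In control it stood at 0.700, 1.19 and 1.08 CPM on day 13, against 10.6, 11.2 and 11.5 CPM on day 10, with no overlap. The step was 4.09 higher in UV on the log2 scale (SE 0.45, edgeR adjusted p = 7.40e-07), with a log2 fold change of 0.62 in UV (edgeR adjusted p = 0.170) and -3.47 in control (edgeR adjusted p = 2.83e-11).

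G39390 stood at 34.2, 26.5 and 31.2 CPM in UV day 13 and 37.5, 35.5 and 31.5 CPM in UV day 10, so the UV groups overlapped. In control it stood at 29.4, 24.3 and 32.0 CPM on day 13, against 23.8, 12.5 and 13.6 CPM on day 10, where replicate 1 lay just below the lowest day 13 library. Its step was -1.10 in UV minus control (SE 0.23, edgeR adjusted p = 0.00365), and this call was lost without control day 10 replicate 3 (edgeR adjusted p = 0.107) and at equal depth, where the step was -0.72 (edgeR adjusted p = 0.473). Over its 24 alternatives the adjusted p ranged from 0.000166 to 0.473.

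**Figure D4:**
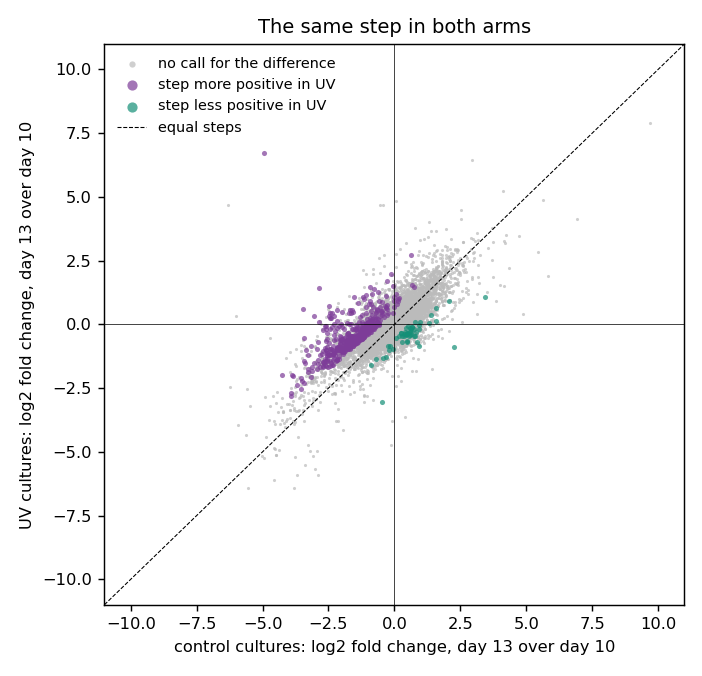
Log2 fold change of day 13 over day 10 in UV cultures (vertical) against that in control cultures (horizontal) for 18196 genes, with the dashed line marking equal steps. Purple points are the 414 genes with a more positive step in UV and green points the 53 with a less positive one. Purple points lie above the dashed line by definition, and most of them lie left of 0.

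The second interval (day 13 over day 10) was also set against the first (day 10 over day 7). Both contain the control day 10 libraries, so their lists of calls are not independent, and their difference was tested directly. The control day 10 libraries weigh most in that difference. That test (edgeR, quasi-likelihood) passed for 2194 genes (12.1%), 1039 (5.71%) with a more positive second step and 1155 (6.35%) with a less positive one. By fitted values, 837 of the 1039 genes were lower on day 10 than on day 7 and then higher on day 13, and 149 declined in both intervals but less in the second. Of the 1155 genes, 747 were higher on day 10 than on day 7 and then lower on day 13, and 328 declined in both intervals and more in the second. Both sets were chosen by this difference in the same libraries, so a trough or a peak on day 10 is favoured by that choice. A shift in the day 10 libraries alone moves both steps in opposite directions. The count was 1405 with a term for day 10 replicates 1 and 2 of both arms, 875 with replicate 3 as the only day 10 library and 1288 without control day 10 replicate 2. At equal depth it was 1346, with 474 more positive and 872 less positive second steps. Side by side, the second interval had 4737 called genes (575 at least 4-fold) and the first had 6474 (35.6%; 265 at least 4-fold), of which 2758 (15.2%) were higher and 3716 (20.4%) lower on day 10.

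By the same rule for UMIs and identifiers, G3527 and G30631 had the smallest p in each direction. G3527 stood at 612, 660 and 595 CPM on day 7. It stood at 253, 257 and 244 CPM on day 10 and at 458, 534 and 406 CPM on day 13, a trough on day 10 with no overlap between days. Its second step was 2.21 above its first on the log2 scale (SE 0.19, edgeR adjusted p = 6.94e-10). G30631 stood at 429, 303 and 316 CPM on day 7. It stood at 727, 791 and 625 CPM on day 10 and at 300.0, 265 and 310 CPM on day 13, a peak on day 10 above every library of the other days. Its second step was -2.32 relative to its first (SE 0.21, edgeR adjusted p = 2.12e-09). The UV cultures, which are not part of that contrast, had G3527 at 737 ± 22.7 CPM on day 7, 252 ± 19.8 CPM on day 10, then 391 ± 6.03 CPM on day 13 (SD, n = 3 each). They had G30631 at 217 ± 25.7 CPM on day 7, 641 ± 49.9 CPM on day 10, then 398 ± 46.5 CPM on day 13 (SD, n = 3 each). The trough of G3527 and the peak of G30631 thus lay on day 10 in both arms.

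**Figure D5:**
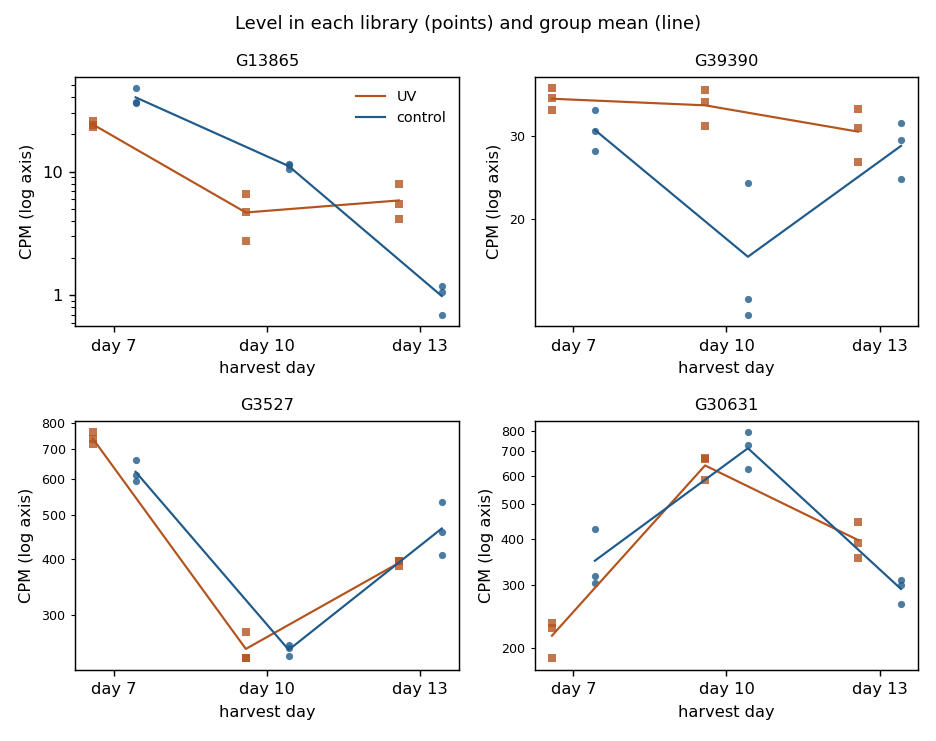
CPM on a log axis, by harvest day, of the 2 genes named for the difference between arms (top) and the 2 named for the difference between intervals (bottom). Squares are UV libraries and circles control libraries, with lines through group means. G13865 drops to 0.700 to 1.19 CPM in control day 13 while the UV day 13 libraries hold 4.15 to 7.92 CPM.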

How the data were processed

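Per the labels' protocols, bead-beaten cells gave column-purified, DNase-treated RNA, which went into MARS-seq2.0 libraries. The authors deposited UMI counts and read counts per gene, whole numbers that are not normalized, for 41734 genes. Aligner, counting tool, genome build and annotation: not given in the sources used here. Per the file headers, the authors also deposited DESeq2 results (adjusted p-values and log2 fold changes), of which only control day 10 and day 13 are quoted. Of the 41734 entries, 19234 also have a second identifier, shared by more than 1 entry in 1543 cases. Reads could be divided between such entries, and none is named here.

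UMI counts of all 18 libraries (6 groups) were fitted with edgeR 4.0.16 in R 4.3.3, using TMM scaling, filterByExpr (minimum count 10, minimum total 15), robust quasi-likelihood F-tests and 1 mean per group. This left 18196 genes, which held 99.7% to 99.8% of UMIs. Two-sided p-values were adjusted over all genes of a comparison (Benjamini-Hochberg), and genes under 0.05 were called. A standard error is the log2 fold change divided by the root of F. Contrasts were day 13 against day 10 in each arm, their difference, and the second against the first interval in control. Single values per library were compared by exact permutation tests. Log2 CPM for correlations used a prior count of 2. Floors cover counting error only. The code was tested on simulated data.

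Groups, tests and the rule for named genes were chosen with earlier results of these data known. For the 2 tests of a difference the rule took the smallest p in each direction with at least 10 UMIs in each group and an unshared second identifier. Alternatives were other scalings, no filter, DESeq2 1.42.0, limma-voom 3.58.1, read counts, fewer libraries, equal depth (UMIs drawn without replacement), a replicate block and a term for day 10 replicates 1 and 2 of both arms. Gene lists by function could not be counted without names.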

Additional observations from a re-analysis of the deposited data

Results flagged for a closer look

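The difference between arms in the day 13 over day 10 step was tested directly and gave 467 genes in edgeR. Under the rule for named genes, the smallest p in each direction belonged to G13865, whose log2 step was 4.09 higher in UV than in control, and G39390, with -1.10. The difference between the second and first interval in control cultures was also tested directly and gave 2194 genes. Under the same rule, the smallest p belonged to G3527, with a second step 2.21 above the first on the log2 scale, and G30631, with -2.32. The part of day 10 replicates 1 and 2 in these counts was not tested beyond the values given with them. No test of single outlying libraries was run on these groups of 3.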

How the results depend on the processing

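For control day 13 against day 10, 17 of 18 alternatives gave a count within 1.5 times of 4737. Every called gene shared with the 4737 had the same direction, which refits of the same libraries largely ensure. Total-count scaling kept 4035 of the 4737 calls and equal depth kept 2464. With all libraries thinned to equal depth the count was 2641 (920 higher, 1721 lower), over 14512 genes tested at less depth. At equal depth UV cultures gave 2258 genes, the difference between arms 216 and the difference between intervals 1346. Leaving out 1 library at a time gave 3251 to 4529 genes for control, 2929 to 3229 for UV, 259 to 570 for the difference between arms and 1288 to 2150 for the difference between intervals. With day 10 replicates 1 and 2 alone the difference between arms gave 189 genes. The difference between intervals gave 875 genes with day 10 replicate 3 alone and 1405 with the term for day 10 replicates 1 and 2. DESeq2 gave 3779 control genes, 1359 higher and 2420 lower. The gap in detected genes (328 at equal depth) was 182 with day 10 replicate 3 alone, 2422 at full depth, and 246 to 401 without 1 library. The gap in the share of the top 100 genes was -3.49 percentage points, -3.99 to -2.67 without 1 library, and -2.12 for the top 10 genes. The cause of these shifts was not tested. G10667, G4899, G8750, G29283, G13865, G3527 and G30631 kept direction and call in each alternative. G39390 lost its call at equal depth (edgeR adjusted p 0.473), with day 10 replicates 1 and 2 alone (0.112) and without control day 10 replicate 3 (0.107).

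The replicate block gave 4849 genes for control, 3804 for UV, 530 for the difference between arms and 2391 for that between intervals. Deviations from the group means of day 13 and day 10 control libraries of the same number correlated at 0.0134, 0.0170 and -0.0312. Libraries of different number gave -0.0327 to 0.0228. The same and different numbers thus gave similar values, which do not decide whether the libraries are paired.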

Other observations

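In control day 13 against day 10, of 688 genes with no second identifier 113 passed (16.4%), against 26.5% of 16298 genes with a second identifier of their own and 25.2% of 1210 genes that share one. Their median level was 3.29 CPM, against 21.0 CPM for genes with their own, and the part of that level in the shares was not tested.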
